A study of Mus musculus with 6 samples.

Results

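The levels of 10 genes of the p53 pathway were followed in the livers of wild-type and Src-transgenic mice: Trp53, Cdkn1a, Mdm2, Ccng1, Bax, Gadd45a, Gadd45b, Btg2, Sesn2 and Phlda3. They were chosen by name as genes of the pathway, with earlier results of these data known, and all 10 were on the array, each with 1 probe. These 10 probes are 10 of the 34967 mouse probes, and in the test they are 10 of 34175 features, a feature being a named gene (taken by its brightest probe) or a probe with no gene name.

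The p53 protein, encoded by Trp53, is a transcription factor that is kept scarce because the ubiquitin ligase Mdm2 marks it for destruction. DNA damage and other stress free p53 from Mdm2, and it then binds paired decamer sites in DNA and switches on genes for cell cycle arrest, repair, metabolism and death, including Mdm2 itself, which closes a feedback loop. In liver the arrest gene Cdkn1a (p21), an inhibitor of cyclin-dependent kinases, is known to limit hepatocyte division, and it also responds to signals other than p53.

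Total RNA of whole liver was hybridised to 1-colour arrays, 1 array for each of 6 livers from C57BL/6 mice of 14 months. The 3 wild-type livers carry replicate numbers 1, 2 and 4 in the labels. The 3 transgenic livers, numbered 1, 3 and 4, came from mice in which a human c-Src transgene sits behind the mouse metallothionein promoter, a promoter that responds to zinc and other metals. By the series' design text zinc was usually not needed for Src expression, and no other carcinogen was given; whether these 3 mice received zinc, and whether the sampled tissue held tumour, is not stated. The study looked for genes downstream of Src that could bear on liver tumours, and it left out 1 further array of each group for very low signal. The labels do not say that the wild-type livers came from separate mice, so p-values measure the spread between these samples. In whole tissue, fewer cells of a type and less RNA per cell cannot be told apart.

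The Src probe, which checks the labels, had deposited signals of 60.8, 127 and 104 in wild-type livers against 869.6, 437 and 277 in transgenic replicates 1, 3 and 4; whether this mouse probe reads the human transcript is not known. Hepatocyte markers were above background on every array for 6 of 6 measured, with a summed normalized signal of 119477 to 125651 in wild type and 124814 to 131215 in transgenic livers. Most of that sum came from the very bright probes of Alb, Ttr and Apoa1, and quantile normalization gives all arrays the same set of values. Near-equal sums are thus largely built in and do not compare hepatocyte content. The median deposited signal ran from 53.8 to 117 between arrays, 62.6% to 71.7% of probes were above background, and normalized arrays correlated at 0.862 to 0.939. Probes in patches of shared local deviation made up 1.86% to 9.98% of an array. Transgenic replicate 4 stood apart: Ddx3y, Eif2s3y and Uty, genes of the Y chromosome, were not above background there and were above it on the other 5 arrays, although Kdm5d was above it on all 6. The labels give no sex, so member results that move by over 1.5 times with this array are also given without it.

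Because p53 works through short DNA sites, the sequence next to the members' start sites was read first, from RefSeq windows of GRCm38.p6 holding the 250 bases before each start. All 10 members had a window, and Cdkn1a had 2, one for each of its starts. A p53 half-site, the 10-base decamer of the textbook consensus allowing no mismatch, lay in 6 of the 11 windows and in 7.13% of all 32851 windows. A half-site joined without spacer to a second decamer of at most 1 mismatch, which makes a full 20-base site, lay in 2 member windows and in 0.0761% of all windows. These members are classical p53 targets, known in part for such sites. The full sites are shown with 10 bases on each side, in the direction of transcription, with the 20 bases of the joined decamers in capitals; the first begins 51 bases before the upstream start of Cdkn1a and the second 195 bases before the start of Ccng1.
Cdkn1a upstream start, chr17:29090918-29090957, plus strand: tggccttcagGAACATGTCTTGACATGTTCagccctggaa
Ccng1, chr11:40755452-40755491, minus strand: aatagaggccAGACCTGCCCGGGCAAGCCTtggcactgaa

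Single half-sites are shown for the other members that have one, with the decamer in capitals. The closest decamer joined to them without spacer had 3 to 7 mismatches, against 1 at each of the 2 sites above. Decamers set apart by a spacer were not scored. The half-sites begin 75 bases before the start of Trp53, 186 before Mdm2, 201 before Bax and 40 before Gadd45a. The upstream window of Cdkn1a holds a second one 73 bases before its start.
Trp53, chr11:69580274-69580303, plus strand: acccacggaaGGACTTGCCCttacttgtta
Mdm2, chr10:117710925-117710954, minus strand: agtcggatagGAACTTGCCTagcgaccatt
Bax, chr7:45467080-45467109, minus strand: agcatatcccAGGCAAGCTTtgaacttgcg
Gadd45a, chr6:67037428-67037457, minus strand: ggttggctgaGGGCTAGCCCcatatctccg
Cdkn1a second half-site, chr17:29090896-29090925, plus strand: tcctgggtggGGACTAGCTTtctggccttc

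Cdkn1a and Btg2 had the highest single readings among the members on a transgenic array relative to wild type, so their whole 250-base windows are shown. In the upstream Cdkn1a window the capitals mark the full p53 site, in the downstream Cdkn1a window the GC boxes (GGGCGG), and in the Btg2 window 2 CCAAT boxes and the cyclic AMP response element (TGACGTCA).
Cdkn1a upstream start, chr17:29090729-29090978, plus strand: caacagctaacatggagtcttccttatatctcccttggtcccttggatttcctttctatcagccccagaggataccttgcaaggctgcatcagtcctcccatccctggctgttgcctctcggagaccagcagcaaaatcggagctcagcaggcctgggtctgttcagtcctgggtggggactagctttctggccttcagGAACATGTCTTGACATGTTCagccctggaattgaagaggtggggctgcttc
Cdkn1a downstream start, chr17:29093519-29093768, plus strand: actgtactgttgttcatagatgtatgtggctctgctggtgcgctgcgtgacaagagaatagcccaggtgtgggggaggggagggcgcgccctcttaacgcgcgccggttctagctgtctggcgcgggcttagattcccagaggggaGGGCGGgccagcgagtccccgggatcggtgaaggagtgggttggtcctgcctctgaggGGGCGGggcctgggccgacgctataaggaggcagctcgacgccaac
Btg2, chr1:134079156-134079405, minus strand: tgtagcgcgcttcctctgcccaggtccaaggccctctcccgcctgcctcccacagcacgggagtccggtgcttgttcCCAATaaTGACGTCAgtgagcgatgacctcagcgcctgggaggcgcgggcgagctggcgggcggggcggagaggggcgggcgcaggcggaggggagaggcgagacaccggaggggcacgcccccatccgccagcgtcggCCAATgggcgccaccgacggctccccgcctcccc

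Other motifs were searched on both strands in the same windows. The cyclic AMP response element was in 1 member window, that of Btg2, and in 1.55% of all windows. The AP-1 motif TGANTCA, the serum response element and the paired heat shock motif GAANNTTC were in 0 of the 11 member windows, against 6.75%, 1.47% and 6.69% of all windows. CCAAT boxes were in 7 and GC boxes in 8 member windows, against 33.8% and 32.7% of all. TATAAA was in 2 (Trp53 and Gadd45b) and the E-box CACGTG in 2 (Bax and Gadd45b), against 12.4% and 6.02%. These are matches of letters in 250 bases only, and the array does not measure binding.

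Whether the pathway differs between the groups was asked gene by gene. No member passed the test: limma with Benjamini-Hochberg adjustment over all features called 0 of the 10, and 0 of 34175 features in either direction (0% each). The directions were mixed, with 7 of 10 member differences above 0 against 51.7% of all features, and a median log2 difference of 0.48 against 0.016 over all features. By unadjusted p under 0.05, limma had 1 member higher in transgenic livers (Mdm2), where 4.37% of all features were higher and 2.72% lower. Wild-type and transgenic values were fully separated for 3 members, all higher in transgenic livers (Mdm2, Gadd45b and Sesn2); 10.1% of all features did not overlap in that direction and 5.9% in the other. Among the 23397 features above background on at least 3 arrays, to which 9 of the members belong, 11.8% did not overlap with transgenic higher, 4.55% were higher at p under 0.05 and 52.2% had a difference above 0. Without transgenic replicate 4 the unadjusted count was 3 (Cdkn1a, Mdm2 and Btg2), where 2.79% of all features were higher by the same rule.

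**Figure D1:**
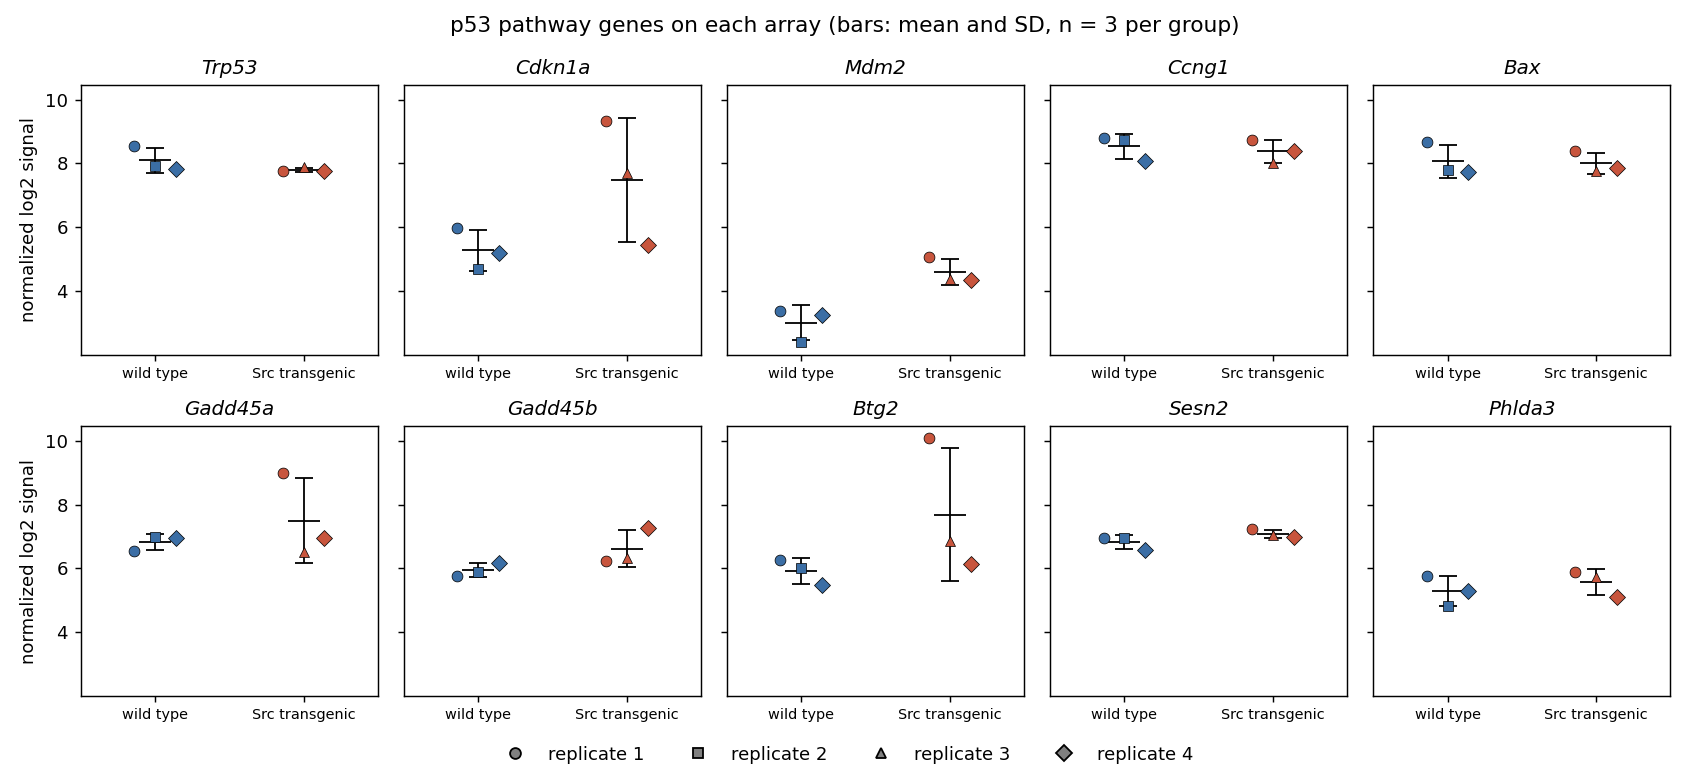
Normalized log2 signal of each of the 10 p53 pathway genes on every array, 3 wild-type and 3 Src-transgenic livers, with bars for the mean and SD. Transgenic replicate 1 is far above the wild-type values for Cdkn1a, Btg2 and Gadd45a, as is replicate 3 for Cdkn1a, while Trp53, Bax and Ccng1 overlap between the groups.

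Trp53, the transcription factor at the head of the pathway, read 246, 206 and 241 (deposited signal) in wild-type replicates 1, 2 and 4 and 233, 293 and 288 in transgenic replicates 1, 3 and 4. The groups overlapped on the normalized scale, and the highest of the 6 values was wild-type replicate 1. The normalized log2 level was 8.09 ± 0.39 (SD, n = 3) for the wild-type group and 7.80 ± 0.071 (SD, n = 3) for the transgenic group. Their log2 difference was -0.29 ± 0.25 (SE; 95% interval -0.90 to 0.31), with a limma adjusted p = 0.761. Without wild-type replicate 1 the difference was -0.07.

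Mdm2, the ligase that degrades p53 and is itself a p53 target, read 9.18, 2.67 and 9.09 in wild type and 35.8, 25.1 and 24.6 in transgenic livers. All 3 transgenic readings were higher than all 3 wild-type readings, but none of the 6 was above background, which lay at signals of 33 to 50.6, so no fold is given. On the normalized log2 scale the means were 3.01 ± 0.54 and 4.59 ± 0.40 (SD, n = 3 each), and the difference of 1.59 ± 0.35 (SE; 95% interval 0.73 to 2.45) had a limma adjusted p = 0.691. The unadjusted limma p was 0.00382, and the exact two-sided test, which permutes the arrays over 20 splits, gave p = 0.1, the smallest it can give. The Mdm2 spot of wild-type replicate 4 lay in a patch of local deviation. With 16 added to every signal in place of a floor, the log2 difference was 0.80.

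Cdkn1a, the p21 inhibitor of cyclin-dependent kinases, had the largest mean difference of the members. Its deposited signal was 38.8, 23 and 37.7 in wild-type replicates 1, 2 and 4, and 685, 259.8 and 55.4 in transgenic replicates 1, 3 and 4. Replicates 1 and 3 of the transgenic group were well above every wild-type liver; replicate 4 was inside the wild-type range after normalization, so the groups overlapped. The spot was above background in 3 of 3 transgenic livers but in only 1 of 3 wild-type livers, replicate 1, where it lay in a patch.

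The normalized log2 level of Cdkn1a averaged 5.28 ± 0.64 without the transgene and 7.49 ± 1.94 with it (SD, n = 3 each), and no fold is given because 2 of the wild-type readings were not above background. The log2 difference of 2.22 ± 0.96 (SE) had a 95% interval of -0.12 to 4.55, with adjusted p = 0.691 by limma. The unadjusted limma p was 0.0597, and the exact permutation p, two-sided, was 0.2. The transgenic livers spread over 3.87 log2 units and the wild-type livers over 1.27. Without transgenic replicate 1 the difference was 1.30, and without transgenic replicate 4 it was 3.24. With the deviations of neighbouring spots subtracted it was 2.46.

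Btg2, an antiproliferative gene induced by p53 and by growth signals, had the most extreme single array. It read 47.4, 56.1 and 46.4 in wild type and 1148, 145 and 91.5 in transgenic replicates 1, 3 and 4. Replicate 1 stood 4.16 log2 units above the wild-type mean after normalization, replicate 3 stood 0.95 above and replicate 4 stood 0.21 above. The group means were 5.92 ± 0.41 and 7.69 ± 2.10 (SD, n = 3 each), the groups overlapped, and the log2 difference was 1.78 ± 1.00 (SE; 95% interval -0.66 to 4.21), 3.42-fold, with a limma adjusted p = 0.704. It was 0.58 without transgenic replicate 1. The order of the 3 transgenic arrays was the same as for Cdkn1a.

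Gadd45a and Gadd45b, stress-induced partners of PCNA and of growth-arrest kinases, were highest in different livers. Gadd45a read 56.3, 109 and 132 in wild type and 552, 116 and 165 in transgenic replicates 1, 3 and 4. Only transgenic replicate 1 was above the wild-type range after normalization. The log2 difference of Gadd45a was 0.68 ± 0.65 (SE; 95% interval -0.90 to 2.25; limma adjusted p = 0.782), and it was -0.081 without that array.

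Gadd45b read 34.2, 51.6 and 76.6 in wild type and 81.5, 100.4 and 207 in transgenic livers. Every transgenic value exceeded every wild-type value after normalization, and the highest was replicate 4, the array on which Cdkn1a was lowest of the transgenic group. Its means were 5.95 ± 0.21 and 6.62 ± 0.58 (SD, n = 3 each), and 0.67 ± 0.33 (SE; 95% interval -0.13 to 1.47) separated them on the log2 scale, 1.59-fold, with limma adjusted p = 0.691. Before adjustment limma gave p = 0.087, and the exact permutation test gave p = 0.1. Without transgenic replicate 4 the difference was 0.34.

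Ccng1, cyclin G1, a p53 target that recruits a phosphatase to Mdm2 and whose window holds the second full p53 site, read 296, 359.7 and 289.6 in wild type and 457, 318 and 437 in transgenic livers. After normalization between arrays the groups overlapped, and the highest value was that of wild-type replicate 1. The log2 difference was -0.16 ± 0.30 (SE; 95% interval -0.88 to 0.57; limma adjusted p = 0.887), and it was 0.027 without transgenic replicate 3. The 2 members with a full site next to a start, Cdkn1a and Ccng1, had log2 differences of 2.22 and -0.16, neither past the test. Any part of these sites in the 2 values was not tested.

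**Figure D2:**
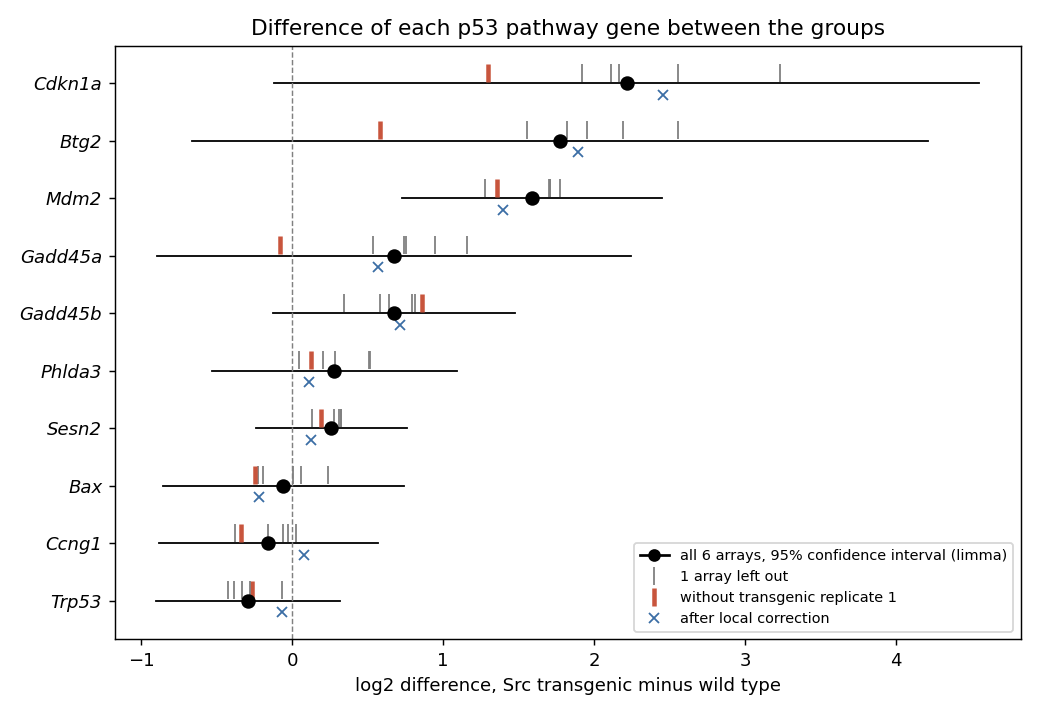
Log2 difference (transgenic minus wild type) of each p53 pathway gene on the horizontal axis, with its 95% interval from limma. The Mdm2 interval, from 0.73 to 2.45, lies above 0 but its spots were not above background; the intervals of Cdkn1a and Btg2 are the widest.

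Bax, a pore-forming member of the BCL2 family that carries out p53-dependent death, read 268, 192 and 226 in wild type and 356, 272 and 307 in transgenic livers. The normalized values overlapped, and the log2 difference was -0.061 ± 0.33 (SE; 95% interval -0.86 to 0.74; limma adjusted p = 0.963). Its sign changed with the arrays used, to 0.24 without wild-type replicate 1. Sesn2, a sestrin that restrains mTORC1 under stress, read 75.2, 107 and 101 in wild type and 161, 166 and 170.1 in transgenic livers. Its groups did not overlap after normalization but lay close, with a log2 difference of 0.26 ± 0.21 (SE; 95% interval -0.24 to 0.76), 1.20-fold, and limma adjusted p = 0.75. Without wild-type replicate 4 it was 0.13.

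Phlda3, a p53 target that competes with Akt for membrane lipids, read 33.8, 25 and 40.7 in wild type and 63, 65.4 and 43 in transgenic livers. It was above background only on wild-type replicate 1 and transgenic replicates 1 and 3, and the groups overlapped. The log2 difference was 0.28 ± 0.33 (SE; 95% interval -0.53 to 1.09; limma adjusted p = 0.817), and it was 0.043 without wild-type replicate 2, 0.13 without transgenic replicate 1 and 0.51 without either wild-type replicate 1 or transgenic replicate 4.

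The transgenic livers also differed among themselves. Transgenic replicate 1 had the highest of the 6 normalized values for 6 of 10 members, against 15.1% of all features, and the highest of the transgenic values for 8 of 10, against 39.3%. In all, 5 members (Cdkn1a, Mdm2, Btg2, Sesn2 and Phlda3) had the order replicate 1, then 3, then 4, as had 21.6% of all features. As a mean over the 10 members, transgenic replicates 1, 3 and 4 stood 1.39, 0.45 and 0.25 log2 units above the wild-type mean, and the wild-type livers ranged from -0.16 to 0.29. Without transgenic replicate 1 the median log2 difference of the members was 0.16, against 0.48 with it. The Src probe had the same order of transgenic arrays, with normalized log2 levels of 9.67, 8.48 and 7.71.

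**Figure D3:**
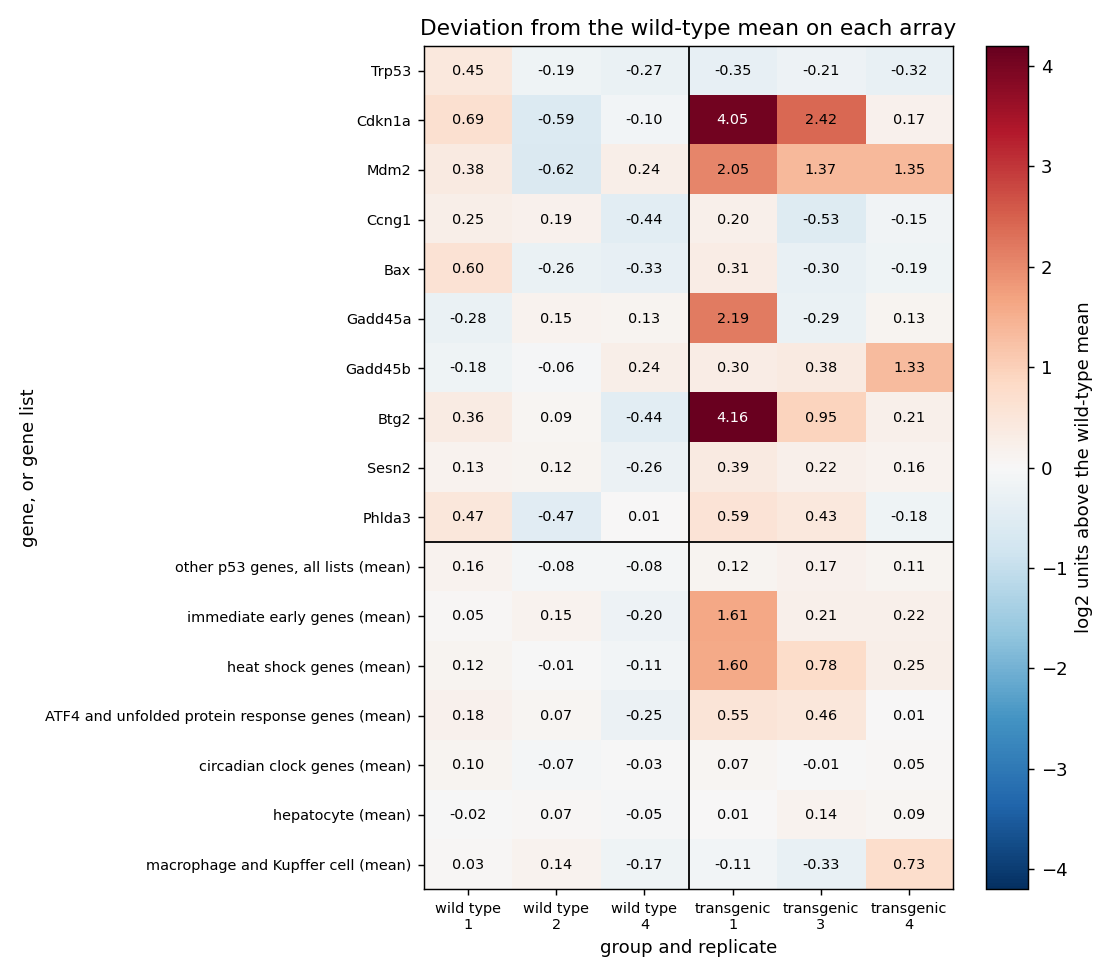
Deviation from the wild-type mean, in log2 units by colour, for each p53 pathway gene and for the mean of each gene list (rows) on each array (columns). Transgenic replicate 1 is high for Cdkn1a (4.05), Btg2 (4.16), Gadd45a (2.19) and for the immediate early (1.61) and heat shock (1.60) lists.

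Immediate early, heat shock and unfolded protein response genes also had their highest list means on transgenic replicate 1, and their part in the members' values was not tested. Immediate early genes, which respond to growth factors and stress without new protein synthesis, stood 1.61, 0.21 and 0.22 log2 units above the wild-type mean on transgenic replicates 1, 3 and 4, against -0.20 to 0.15 over the wild-type arrays. Of these, 15 of 16 had a difference above 0 (51.7% of all features) and 3 were higher at p under 0.05 (4.37% of all features), among them Junb (1.14 ± 0.33, SE) and Nr4a1 (1.00 ± 0.37, SE; 0.62 without transgenic replicate 1); 0 passed limma's adjusted test. Heat shock genes stood 1.60, 0.78 and 0.25 above, against -0.11 to 0.12 over the wild-type arrays. Of the heat shock genes, 9 of 10 were above 0 and 4 at p under 0.05, among them Dnajb1, a co-chaperone (2.28 ± 0.67, SE), and Hsp90aa1 (1.29 ± 0.44, SE). The unfolded protein response and ATF4 list stood 0.55, 0.46 and 0.014 above, with 8 of 13 above 0 and 0 adjusted calls by limma. Its wild-type arrays ran from -0.25 to 0.18, so replicate 4 lay inside their range.

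**Figure D4:**
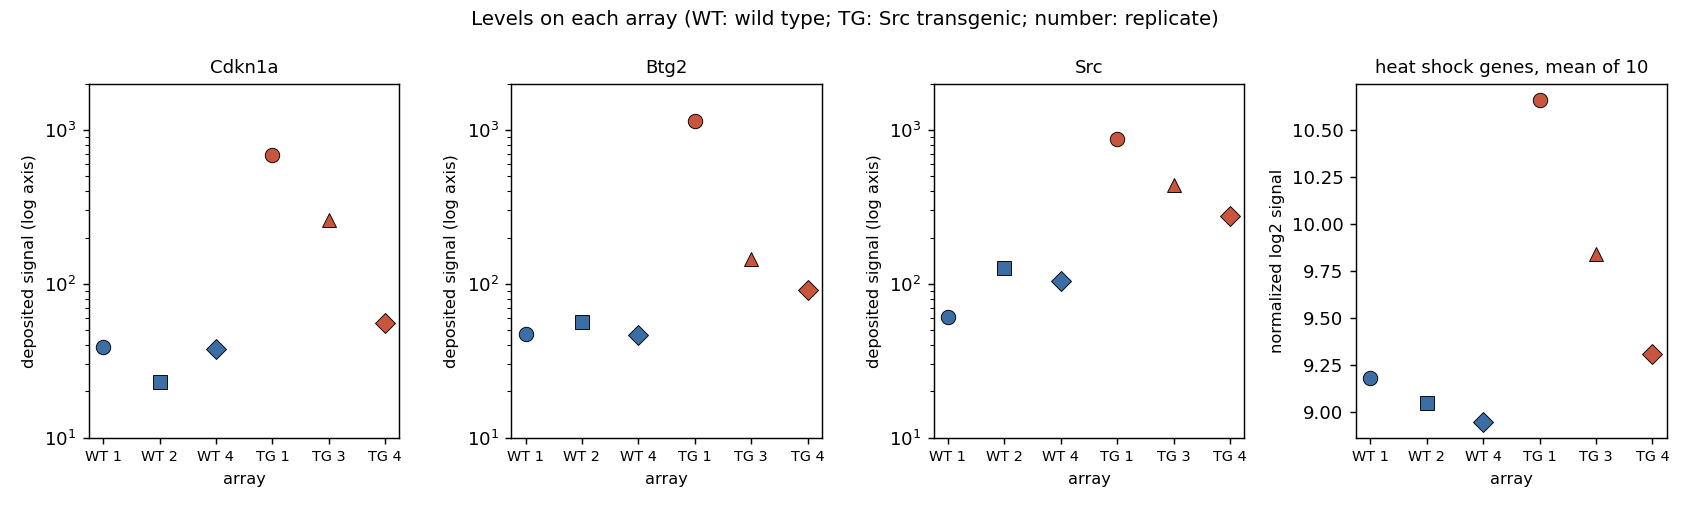
Deposited signal (log axis) of Cdkn1a, Btg2 and the Src probe, and the mean normalized log2 signal of 10 heat shock genes, on each of the 6 arrays. In all 4 panels the transgenic arrays are ordered replicate 1, 3, 4; Cdkn1a on transgenic replicate 4 reads 55.4, near the wild-type livers.

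Markers of other liver cell types were set beside the members for the same reason, and their part was likewise not tested. Macrophage and Kupffer cell markers (4 of 7 measured, all above background on every array) summed to 2920 to 3632 in wild type and 2723 to 5182 in transgenic livers; the highest was replicate 4, where Gadd45b was also highest. Lymphocyte markers (6 of 7 measured) summed to 1033 to 1205 and 1132 to 1836, and neutrophil markers (4 of 5) to 225 to 550 and 279 to 664. The lymphocyte sum of 1836 was on transgenic replicate 3, where the Cd79a spot lay in a patch and read 1562 (deposited signal). The lymphocyte markers went both ways, with 3 differences above 0 and 3 below. Without overlap, Cd3g (-0.74 ± 0.29, SE) and Nkg7 (-0.56 ± 0.22, SE) were lower, against 5.9% of all features. Cd79a (0.56 ± 0.37, SE) was higher without overlap, against 10.1%. Cholangiocyte (5 of 6), endothelial (5 of 6) and stellate cell (6 of 6) markers summed to 925 to 1255, 2713 to 3406 and 2119 to 3023 in wild type and to 930 to 1362, 2431 to 3137 and 2125 to 2851 in transgenic livers. On each array 4 to 6 of 6 lymphocyte, 3 of 4 neutrophil, 4 to 5 of 5 cholangiocyte, 4 to 5 of 5 endothelial and 5 to 6 of 6 stellate markers were above background. Cdkn1a and Btg2 were highest on transgenic replicate 1. There the macrophage list was 0.11 below the wild-type mean and the lymphocyte list 0.21 below it (means of log2 values). The endothelial, stellate, cholangiocyte and neutrophil lists stood at -0.28, -0.17, 0.35 and 0.028 on the same scale. Wild-type arrays ran from -0.17 to 0.14 (macrophage), -0.04 to 0.05 (lymphocyte) and -0.52 to 0.79 (endothelial). For the others they ran from -0.44 to 0.25 (stellate), -0.30 to 0.215 (cholangiocyte) and -0.21 to 0.40 (neutrophil).

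The rest of the pathway was read from lists of 68 further p53 genes, of which 57 were measured. Their differences were balanced, 29 above 0 and 28 below, with a median log2 difference of 0.009 against 0.016 over all features. By limma 0 were called after adjustment; 4 had an unadjusted p under 0.05 with transgenic higher and 2 with transgenic lower, against 4.37% and 2.72% of all features. The groups did not overlap for 6 with transgenic higher and 3 with transgenic lower, against 10.1% and 5.9% of all features. The mean of the 57 stood 0.12, 0.17 and 0.11 log2 units above the wild-type mean on transgenic replicates 1, 3 and 4. The wild-type arrays ran from -0.08 to 0.16, so replicates 1 and 4 lay inside their range. That mean averages genes that went both ways, of which 4 are given here, picked after their values were seen. On replicate 1, Ccng2 (cyclin G2) and Tob1 read 7.41 and 11.43 against wild-type means of 5.91 and 10.08 (normalized log2). Pml and Bid read 7.42 and 7.09 there against wild-type means of 8.53 and 7.64.

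Of 13 further arrest and growth genes measured, 8 had a difference above 0 (median 0.38), against 51.7% of all features. By limma 2 were higher at an unadjusted p under 0.05, and these 2 also did not overlap. Over all features 4.37% were higher by that rule and 10.1% did not overlap in that direction. Gadd45g, the third Gadd45 gene, read 65.7, 59.7 and 58.4 in wild type and 224, 552 and 259.6 in transgenic livers. Every transgenic liver was above every wild-type liver, and replicate 3, not replicate 1, was the highest. The log2 difference of Gadd45g was 1.83 ± 0.43 (SE), 3.55-fold, with limma adjusted p = 0.691, and it ran from 1.43 to 2.10 with single arrays left out. Psrc1, a spindle protein, was 0.84 ± 0.34 (SE; 0.52 without transgenic replicate 3), Trp53inp1, which helps p53 act under stress, 0.60 ± 0.31 (0.39 without transgenic replicate 1) and the kinase gene Plk2 -0.57 ± 0.30.

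Of 14 upstream regulators measured, 7 had a difference above 0 and 7 below (median -0.011). Pml, the scaffold of nuclear bodies that hold p53, was lower without overlap, by a log2 difference of -0.85 ± 0.26 (SE; limma adjusted p = 0.691), with a patch at the wild-type replicate 4 spot. Trp53bp1, a DNA break adaptor, was not above background in wild type (16.2, 16.6 and 33.3) and read 17.6, 227 and 304 in transgenic livers. It was above background in 2 of the 3 transgenic livers, replicates 3 and 4, and near the wild-type readings in replicate 1, where Cdkn1a was highest. The groups overlapped, and the log2 difference of 1.93 ± 1.00 (SE) was 1.24 without transgenic replicate 4 and 3.12 without transgenic replicate 1. Kat5 (-0.36 ± 0.26, SE; -0.56 without transgenic replicate 4) and Rpl5 (0.29 ± 0.22, SE; -0.045 with median scaling, 0.15 without transgenic replicate 4) were the next by p.

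Of 15 further apoptosis genes, 6 had a difference above 0 and 9 below (median -0.074). Tnfrsf10b, a death receptor, did not overlap, at 0.35 ± 0.18 (SE). Apaf1, the apoptosome scaffold, was 0.60 ± 0.24 (SE; limma adjusted p = 0.691) and above background on 0 arrays. Pidd1 was 1.37 ± 0.76 (SE), resting on transgenic replicate 3 (signal 478, in a patch) and 0.44 without it. Of 13 repair and metabolism genes, 7 were above 0 and 6 below (median 0.077), among them Xpc, a sensor of bulky DNA lesions, at -0.41 ± 0.22 (SE) without overlap.

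**Figure D5:**
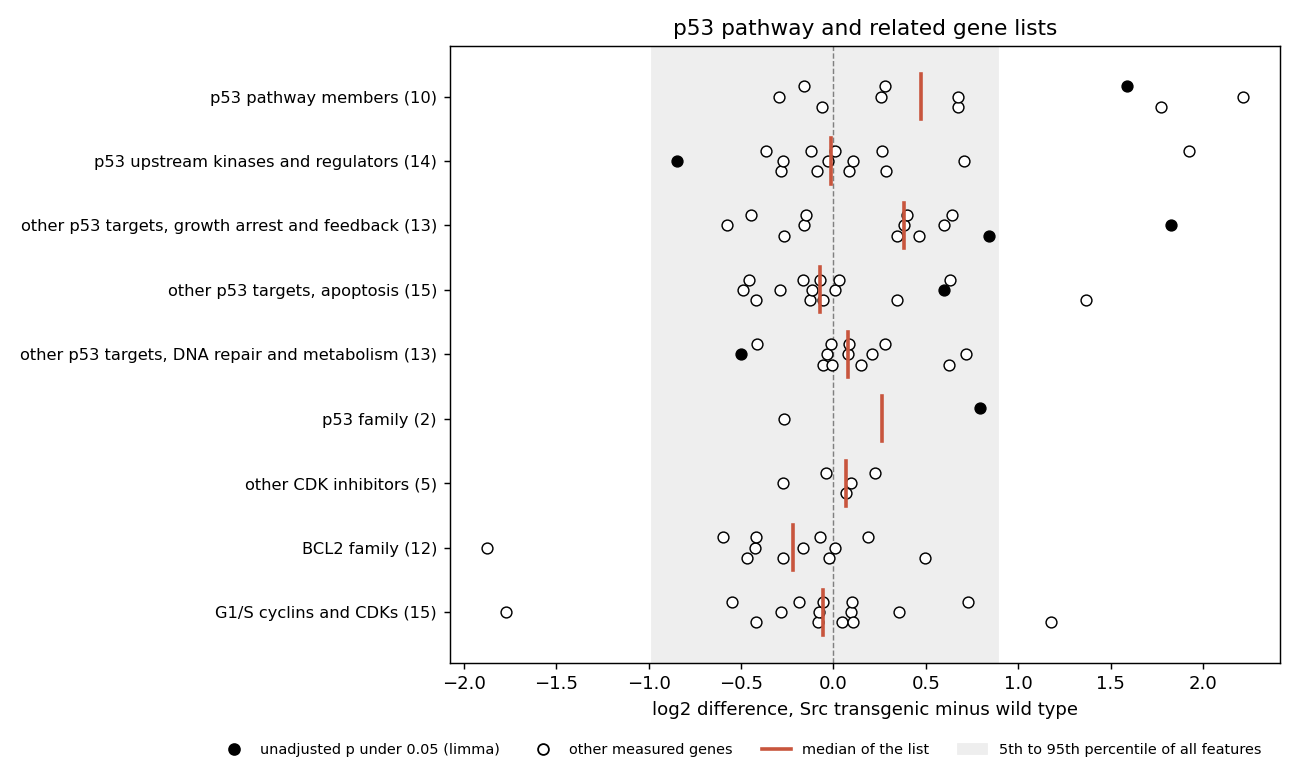
Log2 difference (transgenic minus wild type, horizontal axis) of each gene in the p53 lists and the related lists (rows, with the number measured); each point is 1 gene. The points of each list lie on both sides of 0.

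The families around the members gave no adjusted call by limma. Of the other cyclin-dependent kinase inhibitors 5 of 7 were measured, with differences from -0.27 ± 0.33 (Cdkn2a) to 0.23 ± 0.25 (Cdkn2b) (SE; 0 at unadjusted p under 0.05). Cdkn2a was -0.061 without wild-type replicate 1, and Cdkn2b was 0.027 without wild-type replicate 2. The p53 relatives were Trp63, 0.79 ± 0.31 (SE) and above background on 1 transgenic array only, and Trp73, -0.27 ± 0.58 (SE) and above background on 1 wild-type array only. Of 12 other BCL2 family genes 3 had a difference above 0 and 9 below (median -0.22), with Bcl2l2 (-0.42 ± 0.20, SE), a survival gene, lower without overlap. Bcl2 was -0.47 ± 0.23 (SE) and above background on only 1 array of each group. Genes of the G1 to S transition, which Cdkn1a restrains, were split 7 above and 8 below 0 (median -0.055), with 0 of 15 at an unadjusted p under 0.05. Ccnd1 (cyclin D1) was 0.73 ± 0.43 (SE), and 0.38 without transgenic replicate 4, but it was above background on 0 wild-type arrays and 1 transgenic array. Cdk1 was -0.55 ± 0.33 (SE), and -0.27 without wild-type replicate 2. Some genes, such as Cdkn2a, stand in more than 1 list.

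The named genes whose profile over the 6 arrays was most like that of Cdkn1a were found by Pearson correlation of normalized log2 values among 10954 named genes above background on at least 3 arrays. They were Ppl (periplakin, r = 0.987), Ddit3 (CHOP, a transcription factor of the unfolded protein response, r = 0.986), Il1r1 (an interleukin-1 receptor, r = 0.986), Tbx20 (a T-box factor, r = 0.985) and Frmd6 (r = 0.980). Ppl read 77.9, 74.3 and 75.8 in wild type and 877, 397 and 156 in transgenic replicates 1, 3 and 4. Ddit3 read 378, 339 and 491 in wild type and 1964, 1358 and 523 in the transgenic livers. The likeness is a description over 6 points taken from the top of a long ranking, and it rests on the high readings of transgenic replicates 1 and 3, which these genes share with Cdkn1a.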

How the data were processed

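Total RNA from 6 mouse livers was measured on 1-colour arrays. The deposited intensity of each spot is the authors' expression value, per the file headers; scanner, background step and genome build are not given in the sources used. The authors' value table is the same signal rescaled for each array.

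After 620 control spots were left out, intensities were floored at each array's 1st percentile of positive signals, put on the log2 scale, quantile-normalized and fitted with limma 3.58.1 (R 4.3.3), 3 against 3 arrays, two-sided, with Benjamini-Hochberg adjustment over 34175 features. The signal that marks background is the median plus 3 median absolute deviations of 570 control spots on an array. Gene names came from accessions in the RefSeq table of GRCm38.p6, which named 14763 probes. Patches are spots whose neighbours within 4 rows and columns deviate by a median over 0.5 log2 units. Depth does not apply: the number of arrays limits precision, and the script was tested on simulated data. Named are all members, up to 4 genes of each other list by limma p, and the 5 genes most correlated with Cdkn1a; others were chosen after their values were seen.

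The members, lists, patch and background rules were chosen with earlier results of these data known. Promoter windows were searched with Python 3.11.15. Alternatives covered normalization, floor, filters, spread, weights, value table, probe rule, local correction, replicate block and single arrays left out.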

Additional observations from a re-analysis of the deposited data

How the results depend on the processing

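No member was called by limma under any of the 16 alternatives. Of the members' differences 147 kept direction and call and 9 reversed, and for the other named genes 655 did so and 9 reversed. Some of these could not have reversed. The value table, both filters and the trended spread leave a difference as it was, and so does the probe rule for a gene with 1 probe. Bax became 0.071 with array weights and ran from -0.25 to 0.24 with single arrays left out, including 0.24 without wild-type replicate 1, 0.059 without transgenic replicate 3 and 0.006 without transgenic replicate 4. Ccng1 became 0.076 with local correction, 0.12 with the replicate block and ran from -0.38 to 0.027 (the latter without transgenic replicate 3). Phlda3 was -0.034 with the replicate block, and Gadd45a ran from -0.081 without transgenic replicate 1 to 1.16. Rpl5 was -0.045 with median scaling. Cdkn2d, 0.093 as reported, was -0.24 with local correction, -0.54 with the block, -0.14 without wild-type replicate 4 and -0.50 without transgenic replicate 3, with a highest value of 0.47. Trp73 was 0.42 with the block and 0.33 without wild-type replicate 2, with a lowest value of -0.85. Cdkn1c, 0.068 as reported, was -0.27 without wild-type replicate 4 and -0.011 without transgenic replicate 4, with a highest value of 0.37. The causes were not tested.

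Counts at unadjusted p under 0.05 moved more. Over all features with transgenic higher (1493), the count was 943 with median scaling and 679 with the replicate block, and 953 to 1560 with single arrays left out. With transgenic lower (931), it was 535 for features above background on all 6 arrays, 605 for those on at least 3, 1430 with local correction, and 641 to 1331. The higher share was 61.6%, and 41.8% with median scaling, 45.1% with local correction, 50.4% with the block; median scaling moved the median of all features from 0.016 to -0.078. Members higher (1) became 0 under either filter, 2 with array weights (Cdkn1a and Mdm2), 3 with local correction (Cdkn1a, Mdm2 and Gadd45b) and 1 to 3 with single arrays left out. Members above 0 (7) became 4 of the 7 left on all 6 arrays, and 6 to 9. Members without overlap (3) became 2 under either filter, and both filters leave out Mdm2, which was above background on no array. That count was 4 with local correction and 3 to 5 with single arrays left out, with 5 without wild-type replicate 1 or transgenic replicate 4. Groups of fewer arrays separate more readily, and the shares of all features without overlap in these settings are not given. The counts are therefore not read as a result about the members. Other p53 genes higher (4) became 2 with median scaling, offset 16, either filter, trended spread or the block, and 1 to 4, the 1 without wild-type replicate 1. Other p53 genes lower (2) became 1 with the offset, either filter or trended spread, 0 with the block, and 0 to 2. Adjusted calls over all features went from 0 to 1 higher without transgenic replicate 4 and 0 to 1 lower without wild-type replicate 1.

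Numbers 1 and 4 are shared by both groups. The correlations of deviations from the group means were 0.06 for number 1 and 0.058 for number 4, with only 2 pairs, so the numbers were not taken to pair the samples. The replicate block rests on numbers 1 and 4 alone, because wild-type replicate 2 and transgenic replicate 3 have no partner and add nothing to the difference. With the replicate block the differences were 1.82 for Cdkn1a, 2.23 for Btg2, 1.39 for Mdm2 and 1.24 for Gadd45a. Cdk1 was -0.11 and Psrc1 0.35 with it. Signals below background (Mdm2 on all arrays, Cdkn1a on 2 wild-type arrays, Apaf1, 0.35 with offset 16) and 3 arrays a group limit the precision.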

Other observations

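Genes of the circadian clock and output averaged 0.066, -0.015 and 0.05 log2 units above the wild-type mean on transgenic replicates 1, 3 and 4, over 12 genes that went both ways. Single genes departed more: Cry1 was 10.1 on replicate 4 against a wild-type mean of 8.46, and Dbp 10.26 on replicate 1 against 11.48. By limma p the first were Cry2 at 0.36 ± 0.20 (SE) and Bhlhe40 at -0.40 ± 0.25 (SE). In the unfolded protein response list, Creld2 (1.42 ± 0.44, SE) and the chaperone gene Hspa5 (1.07 ± 0.40, SE) had unadjusted values under 0.05 and a limma adjusted p = 0.691 each. Creld2 read 752, 772 and 986 in wild type and 3040, 4459 and 1600.0 in transgenic replicates 1, 3 and 4, with no overlap between the groups.

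Some large differences in the related lists came from 1 liver each. Bok, a BCL2 family gene, read 64.9, 62.6 and 1127 in wild type and 65.1, 57.7 and 78.2 in transgenic livers, with a log2 difference of -1.87 ± 0.99 (SE) that was -0.67 without wild-type replicate 4. Ccne2 (cyclin E2) read 20.1, 20.3 and 14.6 in wild type and 32.1, 30.5 and 214 in transgenic livers. The high reading was replicate 4, the only array on which Ccne2 was above background. Its log2 difference of 1.18 was 0.32 without that array.

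The metallothionein genes Mt1 and Mt2, which zinc induces, were higher in all 3 transgenic livers, by log2 differences of 3.71 ± 0.53 and 4.88 ± 0.44 (SE), with limma adjusted p = 0.691 and 0.346. Neither had the order of Cdkn1a in the transgenic group: Mt1 read 21580, 13730 and 18070 in replicates 1, 3 and 4.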
